A study of Mus musculus with 36 samples.

Results

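Cannabidiol (CBD) was set directly against monomethyl fumarate (MMF) in lipopolysaccharide (LPS)-activated microglial cells after 24 h of exposure. The comparison rests on 6 of the 36 libraries of the series, taken by their labels: 3 from cells given LPS with CBD and 3 from cells given LPS with MMF. The deposited table of this pair lists 17479 genes. Of these, 11716 had a normalized count of at least 10 in at least 3 of the 6 libraries and were tested. The cells were BV-2, a murine microglial line that grows without limit in culture, so a single line stands for microglia here, without the other cells of the brain. Both groups received LPS at 600 ng/mL in medium whose serum had been lowered beforehand. CBD was given at 6 µM in ethanol (EtOH) and MMF at 30 µM in DMSO, with the vehicle at 0.2% in each culture. Drug, dose and vehicle therefore differed together between the groups and cannot be told apart within the 6 libraries. The study describes its cultures as independent experiments, and the 3 libraries of each group carry the numbers 1 to 3. No library of LPS alone enters the comparison, so none of its calls depends on those libraries. The libraries of LPS alone, of DMSO or EtOH without LPS, and of the same drugs at 4 h are used further on, only to place the direct difference.

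LPS is a component of the wall of Gram-negative bacteria that microglia detect through the receptor TLR4. One adaptor branch of this receptor leads to the transcription factor NF-kB and to inflammatory cytokines, and another leads to type I interferon and to interferon-stimulated genes. MMF is the main metabolite of dimethyl fumarate, a drug used in multiple sclerosis, and fumarates are known for modifying cysteines of Keap1, which releases the antioxidant transcription factor Nrf2. CBD is a lipophilic, non-intoxicating constituent of Cannabis with many described targets and a known influence on membranes, lipids and calcium. Cells answer shortage of sterols through SREBP2, protein-folding and amino acid stress through ATF4 and its partner CHOP, lysosomal demand through TFEB, and free zinc through the metal-responsive factor MTF1.

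The 6 libraries held 15.93 to 21.67 M reads assigned to genes, and 14766 to 15178 genes had a read in each. Mitochondrially encoded genes took 1.254 to 1.396% of the reads with CBD and 2.055 to 2.214% with MMF. All 10 of 10 markers of microglia and macrophages were tested, with a summed normalized count of 46935 to 61114 with CBD and 46486 to 60769 with MMF. Among markers of other cells, 0 of 5 for astrocytes, 1 of 5 for neurons, 2 of 5 for oligodendrocytes, 3 of 4 for endothelium, 1 of 4 for T cells and 1 of 4 for fibroblasts passed the filter. Summed normalized counts were 253.7 to 334.7 with CBD against 198.5 to 223.4 with MMF for the neuronal list, 9.963 to 17.96 against 8.351 to 17.52 for astrocytes, 778 to 949.4 against 1130 to 1393 for oligodendrocytes, 65.67 to 85.31 against 137.8 to 168.5 for endothelium, 158.4 to 216.2 against 83.51 to 104.8 for T cells and 14.94 to 16.84 against 5.22 to 5.839 for fibroblasts. These low lists thus moved both ways, defining genes such as Mog were at 0, and their part in the results was not tested. In both groups the library numbered 2 differed more from the other libraries than those did from each other, by a chi-square of the reads per degree of freedom (17.1 and 17.8 against 4.86 with MMF, 15.3 and 28.4 against 13.4 with CBD). Therefore the overall count and the interferon lists are given also without both of these libraries, and other lists where a count moved by over 1.5 times.

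Nearly every second gene differed between the drugs at 24 h. Of 11716 genes, 5654 were differentially expressed genes (DEGs, 48.3% of those tested) by limma at a Benjamini-Hochberg adjusted p below 0.05. Expression was higher with CBD in 2756 DEGs (23.5%) and lower in 2898 (24.7%). Beyond a log2 fold change (log2FC, CBD over MMF, on log2 of the normalized count plus 1) of 1 in either direction, 641 rose and 534 fell, and beyond 2, 143 rose and 45 fell. The median size of a DEG was 0.57 among rises and -0.55 among falls, with a median standard error (SE) of 0.107 over all tested genes. In 6862 genes (58.6%) the 3 libraries of one drug lay beyond the 3 of the other, with CBD above in 3400 and below in 3462. Only 132 of the tested genes (1.13%) passed the filter through a single group. Leaving out both libraries numbered 2, which was added after seeing the data, gave 5726 DEGs, 2767 higher and 2959 lower. In RNA from whole cultures, fewer cells of a kind and less RNA per cell cannot be told apart.

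**Figure D1:**
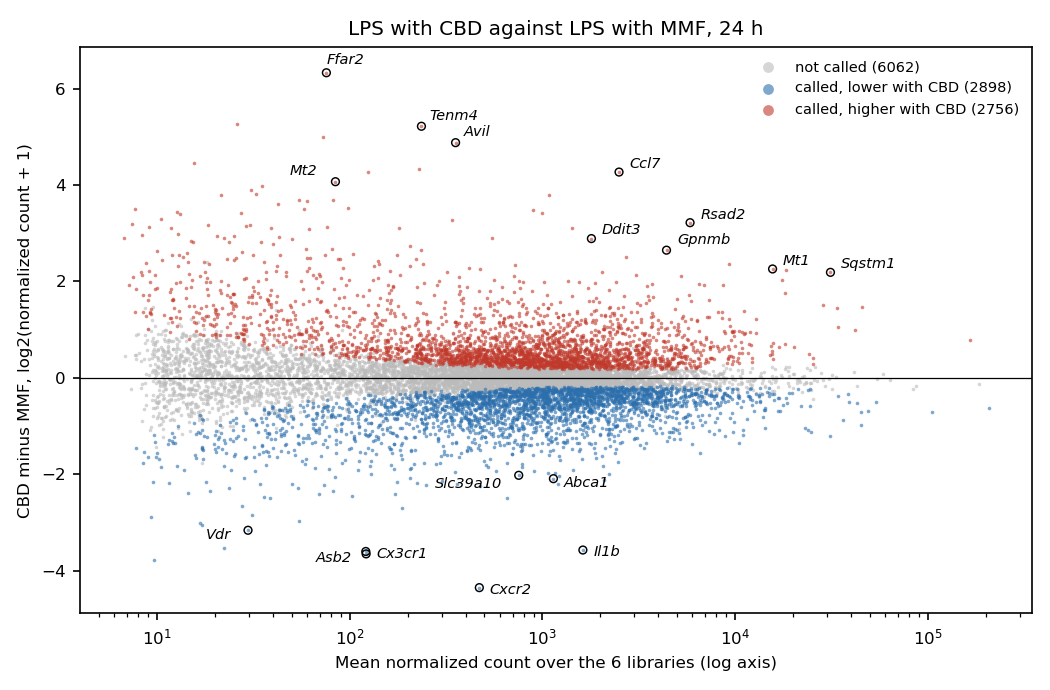
Mean normalized count over the 6 libraries (x, log axis) against the log2FC of CBD over MMF at 24 h (y) for the 11716 tested genes, with 2756 genes called higher in red, 2898 called lower in blue and the others in grey. Rises reach farther from 0 than falls, with Ffar2 at 6.33 and Cxcr2 at -4.35.

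The largest rises with CBD were in genes with little expression in the libraries with MMF. Ffar2 (ENSMUSG00000051314, GRCm39 chromosome 7, 30517773 to 30523200), a receptor of short-chain fatty acids, stood at 99.9, 131.5 and 219.8 normalized counts with CBD and at 1.104, 0 and 1.668 with MMF. Summed over libraries these were 462 reads against 3, a ratio of 158 with an exact 95% counting interval of 53.6 to 768. Acox2, a peroxisomal oxidase of branched acyl chains, had 158 reads against 1, a ratio of 162 with an interval of 28.6 to 6431. Such intervals cover counting error only, and the fitted log2FC of these genes (6.33 and 5.26) depends on the added 1. Genes with more reads in both groups moved nearly as far. Tenm4, a teneurin of the cell surface, stood at 387.2, 325.8 and 664 against 19.87, 5.22 and 11.68 (log2FC 5.22, SE 0.418, limma adjusted p 2.73e-05). Avil, the actin-binding protein advillin, stood at 607.3, 448.3 and 1005 against 17.66, 17.75 and 30.03 (log2FC 4.88, SE 0.301). Ccl7 (chromosome 11, 81936538 to 81938351), a chemokine that attracts monocytes, stood at 5876, 3972 and 4388 against 321.2, 149.3 and 291.9, which was 19.33-fold higher (adjusted p 7.42e-06). In each of these genes the lowest CBD library lay far above the highest MMF library, though their choice already required groups that did not overlap. CBD replicate 3 was the highest library except for Ccl7.

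The other largest rises were Gbp8 (log2FC 5.00), an interferon-inducible GTPase, Cd200r4 (4.34), a receptor of the CD200 family, Car6 (4.27), a secreted carbonic anhydrase, Mt2 (4.07), a metallothionein, Ticam2 (3.98), the adaptor that links TLR4 to the interferon branch, Taf7l (3.90), a variant of a general transcription factor subunit, and Hmcn1 (3.82), an extracellular matrix protein. Ticam2 stood at 63.98, 58.78 and 75.7 with CBD against 4.415, 1.044 and 5.839 with MMF. Ffar2, Acox2, Gbp8, Mt2, Ticam2, Taf7l and Hmcn1 passed the filter through the CBD libraries only, so a difference was a condition of their being tested. Gbp8 and Cd200r4 belong to families of similar genes, so the split of reads within those families is uncertain.

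The largest falls were led by receptors and by a cytokine of the inflammatory response. Cxcr2 (ENSMUSG00000026180, chromosome 1, 74193150 to 74200405), the receptor of the CXC chemokines that attract neutrophils, stood at 43.78, 63.76 and 28.27 with CBD and at 894, 961.4 and 832.4 with MMF (log2FC -4.35, SE 0.244, limma adjusted p 5.79e-06). Il1b (ENSMUSG00000027398, chromosome 2, 129206490 to 129213059), the precursor of the cytokine interleukin 1 beta, stood at 195.3, 474.2 and 150.5 against 2055, 3939 and 2923 (log2FC -3.57, SE 0.381, adjusted p 0.000112). Cx3cr1 (chromosome 9, 119877749 to 119898945), the fractalkine receptor through which neurons restrain microglia, stood at 12.35, 34.87 and 10.03 against 145.7, 329.9 and 194.3 (log2FC -3.60, SE 0.444). For Il1b and Cx3cr1 the library numbered 2 was the highest in both groups. That the groups did not overlap was required by the choice of the genes. Asb2 (log2FC -3.65), the substrate receptor of a ubiquitin ligase for filamins, stood at 28.06, 21.92 and 7.297 against 222.9, 179.6 and 270.3. Trem1 (-2.49), a receptor that amplifies inflammatory signals, stood at 196.4, 321.8 and 111.3 against 855.4, 1364 and 1084. Vdr (-3.16), the vitamin D receptor, was even among the MMF libraries at 51.87, 54.28 and 53.38 and lay at 5.612, 10.96 and 1.824 with CBD. The remaining falls of the rule were Add2 (-2.97), a cytoskeletal adducin, Atp2b4 (-2.85), a calcium pump of the plasma membrane that passed the filter through the MMF libraries only, Ocstamp (-2.70), a protein of cell fusion, Fgf12 (-2.50), an intracellular fibroblast growth factor homologue, Il1r2 (-2.46), the decoy receptor of interleukin 1, and Spns2 (-2.45), the exporter of sphingosine 1-phosphate.

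**Figure D2:**
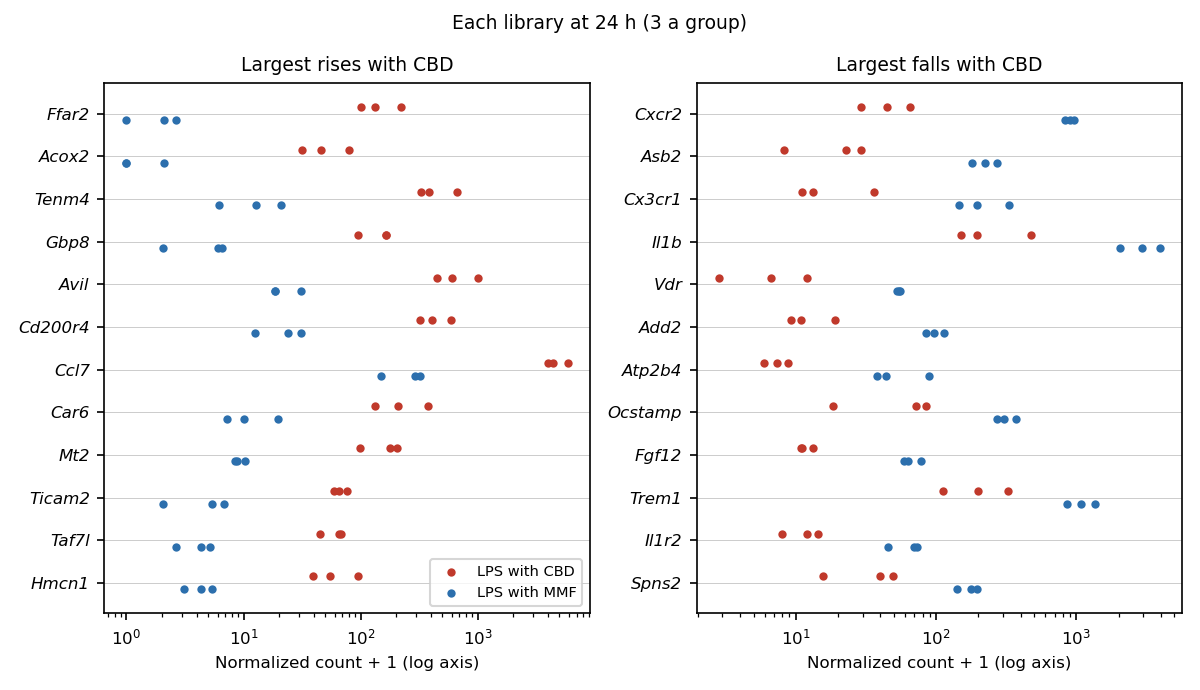
Normalized count plus 1 (x, log axis) in each of the 3 libraries with CBD (red) and the 3 with MMF (blue) for the 12 genes with the largest rise (left) and the 12 with the largest fall (right). In all 24 genes the points of the groups are apart, which the choice of the genes required.

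Secreted inflammatory mediators did not move as a block. Among 14 tested members of the list of cytokines and growth factors, 4 rose and 5 fell, compared to 23.5% and 24.7% of all tested genes. Their median log2FC was -0.04 against a median of 0 over all genes. Besides Il1b, Tnf, an early inflammatory cytokine, fell from 5882, 6000 and 5881 with MMF to 4385, 4786 and 3213 with CBD (log2FC -0.54, SE 0.13, limma adjusted p 0.00778). Tgfb1, which dampens inflammation, fell from 7143, 7943 and 7060 to 3769, 4530 and 2900 (log2FC -1.01, adjusted p 0.000474). Others were higher with CBD. Csf1, the growth factor of macrophages and microglia, stood at 2592, 2796 and 3282 against 980.1, 883.1 and 883.3 (log2FC 1.65, adjusted p 6.39e-06). Il1rn, the natural antagonist of the interleukin 1 receptor, stood at 11208, 11433 and 10588 against 3399, 4256 and 3270 (log2FC 1.61, adjusted p 8.25e-06). Il6 stood at 215.5, 215.2 and 285.5 against 84.98, 100.2 and 82.58 (adjusted p 0.000135). Thus Il1b was lower while the gene of its receptor antagonist was higher, and Tnf and Il6 moved in opposite directions.

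Chemokine genes were mostly higher with CBD. Of 13 tested, 9 rose and 2 fell (median log2FC 0.77), compared to 23.5% and 24.7% of all tested genes. Ccl2, the main attractant of monocytes, stood at 17653, 16099 and 13051 with CBD against 3382, 2181 and 3733 with MMF (log2FC 2.36, SE 0.189, limma adjusted p 2.73e-05). Ccl4 stood at 5709, 5066 and 4686 against 1510, 1917 and 1846 (log2FC 1.55). Cxcl10, an interferon-inducible attractant of T cells, was uneven, at 737.5, 1648 and 568.2 against 184.3, 327.8 and 220.2 (log2FC 1.89, SE 0.354, adjusted p 0.00214). The falls were Ccl22, at 2.245, 2.989 and 2.736 against 18.76, 48.02 and 27.53 (log2FC -3.05), and Cxcl14, at 753.2, 601.7 and 591.9 against 1365, 1222 and 1266 (log2FC -0.99). Ccl22 was among the genes with few reads and passed the filter through the MMF libraries. Without CBD replicate 1, 7 chemokine genes remained above the threshold as rises.

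Receptors of cytokines and chemokines moved both ways. Among 15 tested, 5 rose and 6 fell, compared to 23.5% and 24.7% of all tested genes, and their median log2FC was 0. Besides Cxcr2, Cx3cr1 and Il1r2, Il10ra, the ligand-binding chain of the interleukin 10 receptor, fell from 1126, 1893 and 1209 to 314.3, 654.5 and 226.2 (log2FC -1.93, SE 0.343, limma adjusted p 0.00166). Rises included Ccrl2 (log2FC 1.60), an atypical chemokine receptor. Among 16 NF-kB subunits and inhibitors, 3 rose and 4 fell, a share near that of all genes. Nfkbib, an inhibitor, rose by 0.86, whereas Nfkb2, the p100 subunit, fell by 0.66 and Nfkbid, an atypical inhibitor, fell by 0.73 on the log2 scale. Leaving out single libraries changed the NF-kB counts to 1 to 4 rises and 2 to 5 falls, with the fewest rises without CBD replicate 3 and the fewest falls without CBD replicate 1.

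Enzymes that make lipid and gaseous mediators had shares of calls near those of all genes. Of 10 tested genes for nitric oxide, prostaglandin and itaconate metabolism, 1 rose and 3 fell (median log2FC -0.52), compared to 23.5% and 24.7% of all tested genes. Ptgs2, the inducible cyclooxygenase, stood at 14635, 17784 and 13283 with CBD against 25361, 51696 and 26821 with MMF (log2FC -1.12, SE 0.243, limma adjusted p 0.00483). Alox5, the 5-lipoxygenase of leukotriene synthesis, stood at 55, 63.76 and 38.31 against 193.1, 210.9 and 214.4 (log2FC -1.99, adjusted p 6.81e-05). Ass1, which regenerates arginine, rose by a log2FC of 0.53. Nos2, the inducible nitric oxide synthase, stood at 3331, 5404 and 1660 against 5122, 10047 and 5138, and its groups overlapped (log2FC -1.05, SE 0.394, adjusted p 0.0526). In both groups the library numbered 2 was the highest. With the replicate block, Nos2 had an adjusted p of 0.000245, and the list had 2 rises and 7 falls. Without CBD replicate 2 the list had 6 falls and a median of -0.81, Nos2 then being called (adjusted p 0.00369), and without CBD replicate 3 the median was -0.28. Without both libraries numbered 2, 2 rose and 5 fell.

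Interferon-stimulated genes were higher with CBD almost throughout. Of 17 tested, 15 rose and 0 fell, compared to 23.5% and 24.7% over all genes, and the median log2FC was 1.45. In none of the 27 lists was a larger median found. Rsad2, the antiviral enzyme viperin, stood at 7551, 16824 and 7444 with CBD against 1045, 1356 and 826.6 with MMF (log2FC 3.22, SE 0.296, limma adjusted p 5.22e-05). Ifit1, which binds foreign RNA, stood at 2500, 5599 and 2046 against 639, 799.6 and 576.4 (adjusted p 0.000504). Isg15, a ubiquitin-like modifier, stood at 1363, 2422 and 1149 against 355.4, 477.1 and 357.8 (log2FC 1.99), and Stat2, a subunit of the factor that drives these genes, rose by 0.95 (adjusted p 0.00922). CBD replicate 2 was the highest library in each of the 4 genes, and MMF replicate 2 was the highest of its group. Without CBD replicate 2 the median of the list was 0.96, and without both libraries numbered 2 it was 1.04 with 16 rises. Interferon-inducible GTPases, which act on vacuoles that hold pathogens, showed 9 rises and 0 falls among 12 tested (median 1.06). Irgm1 stood at 1674, 2379 and 1513 against 838.8, 865.4 and 779.9 (log2FC 1.14), and Gbp6 stood at 22.45, 29.89 and 18.24 against 1.104, 2.088 and 3.336 (2.98). Gbp6 and Gbp8 passed the filter through the CBD libraries, and similar copies make the reads of single GTPase genes uncertain. Without CBD replicate 2 the median of the GTPases was 0.61, and without both libraries numbered 2 it was 0.73.

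The promoter of Rsad2 is shown because it led this list and holds the core of the element bound by interferon-activated STAT and IRF factors. The letters searched were GAAANNGAA on both strands, within 250 bases before the start site that the GENCODE annotation of GRCm39 marks as canonical. Of 17 list members 8 held the letters (47.1%), compared to 7.1% of the windows of 11706 tested genes. The window of Rsad2, chr12:26506452-26506701 on the minus strand, is written 5′ to 3′ with the match, here on the opposite strand, in capitals. A match of letters is a description of the sequence and shows no binding.
Rsad2: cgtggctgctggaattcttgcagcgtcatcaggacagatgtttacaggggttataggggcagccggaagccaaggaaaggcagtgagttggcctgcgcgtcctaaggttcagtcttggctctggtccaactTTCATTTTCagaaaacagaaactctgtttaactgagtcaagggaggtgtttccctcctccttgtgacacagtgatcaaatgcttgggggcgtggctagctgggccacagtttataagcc

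Nearly all listed genes of cholesterol synthesis and uptake were lower with CBD. Of 20 genes for sterol synthesis and uptake, 19 fell, 0 rose and 1 was not called (median log2FC -1.09), compared to 24.7% falling over all genes. The falls ran from an early step to the last. Hmgcs1, which makes the precursor HMG-CoA, stood at 1308, 1518 and 1097 with CBD against 3000, 3165 and 3210 with MMF (log2FC -1.27, SE 0.11, limma adjusted p 3.71e-05). Hsd17b7, a later enzyme of the ring-modifying steps, fell most, from 1004, 1169 and 1164 to 429.9, 490.2 and 347.5 (log2FC -1.41). Srebf2, the transcription factor of the pathway, fell from 10057, 10523 and 10505 to 6762, 7003 and 5270 (log2FC -0.72). CBD replicate 3 was the lowest library in each of these 3 genes, and without it 18 genes of the list fell with a median of -0.88.

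Hmgcs1 is the single list member whose window held the searched core of the sterol response element, TCACNCCAC, or 5% of 20 members compared to 1.08% of all windows. Its window lies at chr13:120151732-120151981 on the plus strand, with the match in capitals.
Hmgcs1: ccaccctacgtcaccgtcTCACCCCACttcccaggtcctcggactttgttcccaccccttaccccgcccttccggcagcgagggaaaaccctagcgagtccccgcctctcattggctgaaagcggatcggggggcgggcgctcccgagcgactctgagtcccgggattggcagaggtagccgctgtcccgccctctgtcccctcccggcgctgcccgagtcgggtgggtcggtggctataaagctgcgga

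Genes for lipid export and storage divided. Among 14 tested, 5 rose and 4 fell (median log2FC 0.25), not far from the 23.5% and 24.7% of all tested genes. Plin2, which coats lipid droplets, stood at 8433, 8169 and 10003 with CBD against 2633, 2786 and 2625 with MMF (log2FC 1.72, SE 0.0868, limma adjusted p 4.62e-06). Npc1, which moves cholesterol out of lysosomes, stood at 3513, 3651 and 3622 against 1402, 1334 and 1226 (log2FC 1.45, adjusted p 4.62e-06). Soat1, the enzyme that esterifies cholesterol for storage, rose by 0.69. Of the 2 exporters, Abca1 fell from 1695, 2204 and 1607 to 376, 645.6 and 318.3 (log2FC -2.09, SE 0.233, adjusted p 0.000141), whereas Abcg1 rose from 1173, 1360 and 1069 to 1723, 2346 and 1931 (0.73). The exporters thus moved in opposite directions with no overlap of groups in either, as in 58.6% of all tested genes. Of 12 genes for fatty acid synthesis and desaturation, 9 fell and 2 rose (median -0.66), compared to 24.7% and 23.5%. Fasn, the fatty acid synthase, stood at 7166, 7200 and 5920 against 16109, 14812 and 14856 (log2FC -1.18, adjusted p 2.46e-05). Acly (-1.09), which supplies cytosolic acetyl-CoA, and Scd1 (-1.10), a desaturase, fell as well, and Acsl1, an acyl-CoA synthetase, rose by 0.42. Without CBD replicate 1, 1 rise was called in place of 2.

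Lysosomal genes were higher with CBD almost without exception. Of 18 tested, 17 rose and 1 fell (median log2FC 0.78), compared to 23.5% and 24.7% of all tested genes. The counts of this list were the same in every alternative run for the comparison. Gpnmb, a glycoprotein of lysosomes and phagocytes known to rise when lysosomes are loaded with lipid, stood at 7816, 7258 and 7740 with CBD against 1257, 1284 and 1088 with MMF (log2FC 2.65, SE 0.0807). Its limma adjusted p of 9e-07 was the smallest of all tested genes. Sqstm1, the autophagy adaptor p62, stood at 49308, 44793 and 60041 against 11472, 10694 and 11316 (log2FC 2.19, adjusted p 4.62e-06). Gla, the lysosomal alpha-galactosidase, stood at 2916, 2831 and 3253 against 794.7, 797.5 and 701.5 (1.97). The protease gene Ctsb rose by 1.47, from 25029, 24193 and 23488 to 69810, 68368 and 62967. The exception was Tfeb, the transcription factor of lysosomal genes, which fell from 316.8, 371.6 and 304.5 to 215.5, 250.1 and 205.2 (log2FC -0.56, adjusted p 0.0048). So the RNA of the factor was lower where that of the enzymes was higher.

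Gla is shown as the largest rise among 4 members whose windows held CACGTGAC, the core of the CLEAR element that TFEB binds. These were 22.2% of 18 members compared to 2.55% of all windows. The window of Gla lies at chrX:133501905-133502154 on the minus strand, with the match, on the opposite strand, in capitals.
Gla: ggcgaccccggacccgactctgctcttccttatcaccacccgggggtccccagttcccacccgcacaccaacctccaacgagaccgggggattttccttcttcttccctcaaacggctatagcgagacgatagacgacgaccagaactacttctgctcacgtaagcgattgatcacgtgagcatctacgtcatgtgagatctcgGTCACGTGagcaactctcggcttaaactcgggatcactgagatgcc

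Stress genes downstream of ATF4 rose in 11 of 16 members and fell in 1 (median log2FC 0.65), compared to 23.5% and 24.7% of all tested genes, and 2 fell without both libraries numbered 2. Ddit3, which encodes the transcription factor CHOP, stood at 2711, 2742 and 4056 with CBD against 449.2, 351.8 and 467.9 with MMF (log2FC 2.89, SE 0.165, limma adjusted p 6.04e-06). Trib3, a pseudokinase induced by CHOP, stood at 3986, 3275 and 4228 against 970.1, 827.8 and 1128 (1.98). Slc3a2, the heavy chain shared by several amino acid transporters, stood at 24220, 19148 and 41612 against 6490, 6151 and 7163 (2.03, SE 0.233). Atf4 itself rose from 7376, 7435 and 8332 to 14854, 13285 and 15594 (0.92). CBD replicate 3 was the highest library in each of these 4 genes. Ddit4, an inhibitor of mTOR signalling, fell by 0.76 on the log2 scale (adjusted p 0.0224), and this call was lost with DESeq2 (0.0508) and without MMF replicate 2 (0.0659).

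Ddit3 is shown because it led this list and holds TGATGNAA, the composite element of C/EBP and ATF factors, as did 3 of 16 members (18.8%) compared to 2.17% of all windows. Its window lies at chr10:127126310-127126559 on the plus strand, with the match, on the opposite strand, in capitals.
Ddit3: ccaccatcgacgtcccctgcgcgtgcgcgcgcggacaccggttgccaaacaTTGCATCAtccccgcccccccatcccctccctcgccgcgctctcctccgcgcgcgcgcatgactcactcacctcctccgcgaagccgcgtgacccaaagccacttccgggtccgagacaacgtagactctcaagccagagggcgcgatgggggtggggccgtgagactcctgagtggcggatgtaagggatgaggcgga

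Genes for chaperones of the endoplasmic reticulum were moderately higher. Of 15 tested, 11 rose and 1 fell (median log2FC 0.34), compared to 23.5% and 24.7%. Dnajb9, a co-chaperone of BiP induced by the unfolded protein response, stood at 1046, 990.3 and 1567 with CBD against 307.9, 305.9 and 353.7 with MMF (log2FC 1.87, SE 0.162, limma adjusted p 3.79e-05). Hspa5, which encodes BiP, stood at 40469, 39743 and 58590 against 22400, 20320 and 23140 (1.05). Sdf2l1, another resident protein, fell by 0.31 (adjusted p 0.0279) and was not called without CBD replicate 1 (0.105) or 3 (0.0692) or without MMF replicate 2 (0.0519) or 3 (0.109). Without CBD replicate 2, without both libraries numbered 2, or with the replicate block, 2 falls were called. Cytosolic heat shock proteins showed 0 rises (1 by edgeR and by DESeq2) and 3 falls among 10 tested (median -0.12), below the share of calls over all genes. Hsp90ab1 fell from 62364, 61801 and 63496 to 46036, 45222 and 42843 (log2FC -0.49, adjusted p 0.0019). The falls of this list numbered 5 with the replicate block and 1 without CBD replicate 1, MMF replicate 1 or MMF replicate 3.

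Among genes of zinc handling, the metallothioneins and some carriers of the cell surface differed. Of 13 genes, 6 rose and 1 fell (median log2FC 0.28), a share of calls close to the 48.3% of all tested genes, and without MMF replicate 1, 4 rose. Mt1, a metallothionein that binds zinc and copper, stood at 25224, 20936 and 31697 with CBD against 5678, 4916 and 5502 with MMF (log2FC 2.26, SE 0.138, limma adjusted p 7.42e-06). Mt2 (chromosome 8, 94899292 to 94900196) stood at 97.65, 178.3 and 205.2 against 7.726, 9.395 and 7.507, which was 16.78-fold higher (log2FC 4.07), but it was tested only because its CBD libraries passed the filter. Slc30a1, the zinc exporter of the plasma membrane, stood at 1309, 1374 and 1825 against 645.7, 587.7 and 578 (1.30, adjusted p 6.12e-05). Slc39a10, an importer of zinc, fell from 1298, 1230 and 1094 to 250.3, 291.9 and 358.5 (-2.02, SE 0.132, adjusted p 1.03e-05). The groups did not overlap in any of the 4 genes, as in 58.6% of all tested genes.

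The promoter of Mt2 is shown because metal response elements were defined in metallothionein genes. The core searched was TGCACNC or TGCGCNC, a short motif that 26.4% of all windows held. Of 13 list members 4 held it (30.8%), which is close to that share, namely Mt1, Mt2, Slc30a1 and Slc39a7. The window of Mt2, chr8:94898882-94899131 on the plus strand, had 2 matches, written in capitals. The annotation used for windows starts Mt2 at 94899132 and the deposited table at 94899292, so the annotations differ here, and the window lies before the earlier start.
Mt2: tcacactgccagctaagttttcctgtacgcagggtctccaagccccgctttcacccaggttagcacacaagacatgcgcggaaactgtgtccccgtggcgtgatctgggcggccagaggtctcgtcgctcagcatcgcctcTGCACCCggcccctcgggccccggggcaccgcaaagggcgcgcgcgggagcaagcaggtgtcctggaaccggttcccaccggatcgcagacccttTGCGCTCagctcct

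Genes of the Nrf2 pathway showed a mixed pattern at 24 h. The list holds targets of Nrf2 and also Nfe2l2, the gene of Nrf2 itself, Keap1 and Bach1. Of 16 members, 6 rose and 2 fell (median log2FC 0.09), a share of calls near that of all genes. Hmox1, the heme oxygenase, stood at 19484, 17791 and 16839 with CBD against 7239, 8749 and 7095 with MMF (log2FC 1.23, SE 0.0995, limma adjusted p 2.82e-05). Srxn1, the sulfiredoxin that restores peroxiredoxins, stood at 2438, 2092 and 2763 against 1326, 1499 and 1375 (0.79). Slc7a11, the cystine importer, stood at 5316, 5962 and 7133 against 3689, 5346 and 3904 with overlapping groups (0.52, adjusted p 0.018), and it was not called without CBD replicate 3 (0.0599) or MMF replicate 1 (0.0749) or 3 (0.0693). Gsr, the glutathione reductase, fell from 3283, 3539 and 3620 to 2440, 2604 and 2405 (-0.49, adjusted p 0.000529). Txnrd1, the thioredoxin reductase, was lower by only 0.20 (adjusted p 0.0431) and lost its call with edgeR (0.0548), with TMM factors (0.0504), without a filter (0.0711), without CBD replicate 1 (0.0887) or 2 (0.12) and without MMF replicate 1 (0.12) or 3 (0.153). Gclm and Gclc, the subunits of the enzyme that limits glutathione synthesis, had log2FC of 0.13 and -0.13 (adjusted p 0.189 and 0.178). With the replicate block 4 falls of the list were called, and 1 without CBD replicate 1, MMF replicate 1 or MMF replicate 3.

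Genes of cell division were lower with CBD at every stage that was listed. Of 18 mitotic genes 18 fell (median log2FC -1.14), of 18 genes of DNA replication 17 fell (-0.90), and of 13 tested G1 regulators 11 fell (-0.63). In none of these lists did a gene rise, compared to 23.5% rising and 24.7% falling over all tested genes. The G1 list also holds inhibitors of the cycle, so its falls are not all of genes that promote division. Cdkn2c, such an inhibitor, stood at 69.61, 50.01 and 50 with CBD against 170.9, 144.2 and 180.7 with MMF, on a scale common to the 24 h libraries. Mki67, the proliferation marker Ki-67, stood at 3904, 3191 and 2910 with CBD against 9283, 7919 and 8463 with MMF (log2FC -1.37, SE 0.111, limma adjusted p 2.93e-05). Ccna2, the cyclin of S and G2 phases, stood at 832.9, 636.6 and 595.6 against 1974, 1601 and 1995 (-1.44). Kif20a, a kinesin of cytokinesis, fell by 1.44 as well. Rrm2, the subunit that limits deoxynucleotide supply, stood at 1450, 1016 and 955.9 against 3960, 3139 and 4264 (-1.74, adjusted p 5.75e-05), and Cdc6 (-1.50) and Tk1 (-1.37) of the replication list fell too. Among G1 genes, Ccnd1, the cyclin D that answers growth factors, stood at 4394, 3399 and 2412 against 11073, 7883 and 10506 (-1.56, SE 0.203), and Ccne1 stood at 418.7, 315.8 and 306.5 against 1067, 838.3 and 1225 (-1.58). The CBD libraries lay below every MMF library in each of these genes, as in 3462 of all 11716 tested genes. Genes of the list of p53 targets and apoptosis were mixed, with 6 of 16 higher and 2 lower (median 0.15). Their share of calls was near the 48.3% of all tested genes. Gdf15, a stress cytokine, rose from 73.95, 97.08 and 64.23 to 184.1, 221.2 and 181.5 (1.32) and Mdm2, the ubiquitin ligase of p53, rose by 0.78, while Sesn1 fell by 0.73 on the log2 scale.

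Cdk1, the kinase of mitotic entry, stood at 913.7, 606.7 and 685.9 with CBD against 1990, 1516 and 2114 with MMF (log2FC -1.35, adjusted p 0.000213). Its promoter is shown because it is one of 6 mitotic genes, of 18 (33.3%), whose windows held TTTGAA, the core of the cell cycle homology region through which such genes are repressed outside division. The letters stood in 12.3% of all windows. The window lies at chr10:69188769-69189018 on the minus strand, with the match in capitals.
Cdk1: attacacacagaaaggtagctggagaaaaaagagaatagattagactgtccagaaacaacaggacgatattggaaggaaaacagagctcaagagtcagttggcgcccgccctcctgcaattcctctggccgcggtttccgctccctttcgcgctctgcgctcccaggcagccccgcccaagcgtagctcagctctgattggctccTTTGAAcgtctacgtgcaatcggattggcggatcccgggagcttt

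RNA of most genes listed for glucose breakdown, and of most genes encoded in mitochondria, was lower with CBD. Of 15 genes in the glycolysis list, 13 fell and 0 rose, compared to 24.7% and 23.5% of all tested genes. The list also holds Pdk1, which is not itself a step of glycolysis. The median log2FC of the list was -0.59, and -0.42 without CBD replicate 3. Pdk1, which keeps pyruvate from the mitochondria, stood at 2971, 2934 and 1983 with CBD against 5682, 6054 and 5544 with MMF (-1.15, SE 0.142, limma adjusted p 0.00023), and Ldha, which makes lactate, stood at 43910, 39245 and 30057 against 59080, 61110 and 60600 (-0.69). Of 11 tested genes encoded in mitochondria for the respiratory chain, 10 fell and 0 rose (median -0.87), against the same shares over all genes. The cytochrome b gene mt-Cytb stood at 18809, 16143 and 21682 against 42610, 41339 and 45822 (-1.21, adjusted p 6.06e-05), and the oxidase subunit mt-Co1 stood at 175271, 167182 and 148084 against 231330, 273600 and 248802 (-0.62). The mitochondrial share of all reads moved the same way, as given with the libraries above, and the part of RNA quality in these values was not tested.

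Genes by which microglia are recognised were mixed. Of 11 tested members of the identity list, 2 rose and 2 fell (median log2FC -0.26), below the share of calls over all genes, and without MMF replicate 2 the median was -0.08. Besides Cx3cr1, Csf1r, the receptor of Csf1, fell from 10230, 14728 and 11027 to 6130, 9623 and 4955 (log2FC -0.84, SE 0.223, limma adjusted p 0.0128), and Trem2, a lipid-sensing receptor, rose from 1062, 1226 and 1021 to 1640, 1852 and 1473 (0.58). Tmem119 was low in both groups, at 85.31, 89.66 and 46.52 against 98.23, 176.4 and 79.24 (-0.64, adjusted p 0.136, and 0.0129 with the replicate block). With the replicate block 5 members fell, and 4 fell without CBD replicate 2 or without both libraries numbered 2. Csf1 thus rose while its receptor gene fell.

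Receptors for uptake and antibody binding showed 3 rises and 1 fall among 13 tested (median log2FC 0.20, ranging from 0.08 without MMF replicate 1 to 0.44 without CBD replicate 3, which had 6 rises), below the 48.3% of all tested genes called. Fcgr1, the high-affinity receptor of IgG, stood at 1482, 2001 and 1642 with CBD against 633.5, 731.8 and 764.9 with MMF (1.26, limma adjusted p 6.03e-05), and Scarb1, a receptor of high-density lipoprotein, fell from 3974, 4335 and 4367 to 1858, 2132 and 1375 (-1.26). The replicate block gave a further fall, 2 in all. Antigen presentation genes had few calls. Of 11 tested, 1 rose, the transactivator Nlrc5 of class I genes, from 3172, 3529 and 2750 to 5034, 5893 and 5178 (0.77), and the list median was 0.09. Under the replicate block, and without CBD replicate 3, 4 members of that list rose, 3 by DESeq2, and 2 without both libraries numbered 2, where 1 also fell. Surface molecules that steer T cells moved both ways, with 4 rises and 4 falls among 11 tested, compared to 23.5% and 24.7% of all tested genes. Cd274, the inhibitory ligand PD-L1, stood at 666.7, 1071 and 846.4 against 311.2, 458.3 and 412.9 (1.12), and Cd86, a costimulatory ligand, rose by 0.91. Icosl, the ligand of ICOS, fell from 731.7, 736 and 651.4 to 281.7, 310.8 and 311 (-1.23), and Icam1, an adhesion molecule, fell by 0.87 on the log2 scale. Cd48 had few reads and fell from 23.18, 28.19 and 23.36 to 5.612, 2.989 and 3.648 (-2.38). It passed the filter through the MMF libraries only, so a difference was a condition of its being tested.

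**Figure D3:**
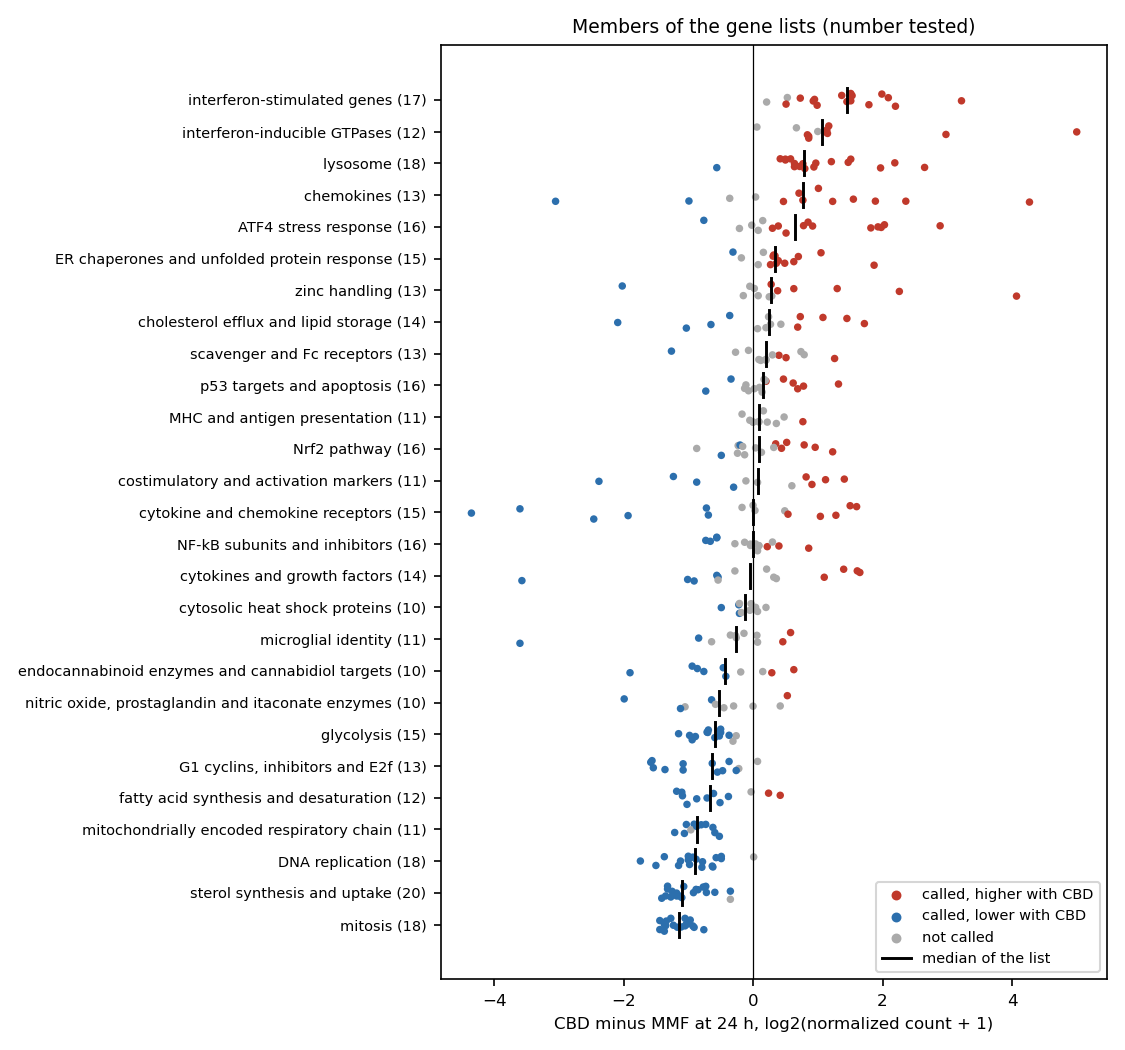
Log2FC of CBD over MMF at 24 h (x) for each tested member of the 27 gene lists (rows, number tested in brackets), with called rises in red, called falls in blue, other members in grey and the list median as a black bar. Medians run from 1.45 for interferon-stimulated genes to -1.14 for mitosis, and the lysosome, sterol and cell division lists lie almost wholly on a single side of 0.

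At 4 h the same drugs differed in far fewer genes. Of 11432 genes 19 were called (0.166%), 8 higher and 11 lower with CBD, with 19 by edgeR, 74 by DESeq2 and 705 at an unadjusted p below 0.05. The libraries numbered alike deviated together, and with the replicate block 889 were called, 581 higher and 308 lower, so the count at 4 h depended on whether this pairing entered the fit. Without single libraries it ran from 9 (without MMF replicate 2 or 3) to 14, with 11, 11 and 10 without CBD replicates 1, 2 and 3. Among the 27 lists, the Nrf2 pathway and zinc handling held 6 and 4 genes called at 4 h in the limma fit without pairing. In that fit the sterol, interferon, ATF4 and cell division lists had 0 calls. List counts at 4 h were not made with the replicate block, so these 0 calls do not show a lack of difference. The median log2FC was 0.50 for interferon-stimulated genes (0.12 to 0.81) and 0.20 for sterol genes (0.03 to 0.49). It was -0.11 for ATF4 and -0.05 for mitosis.

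The calls at 4 h were led by antioxidant genes that were lower with CBD than with MMF. Hmox1 stood at 3549, 4042 and 3615 with CBD and at 7776, 9306 and 7677 with MMF (log2FC -1.14, limma adjusted p 0.00231). Srxn1 stood at 1108, 944 and 918.1 against 2015, 2332 and 1764 (-1.04, adjusted p 0.00507), and Gclm stood at 940.2, 931.5 and 896.2 against 1927, 1670 and 1632 (-0.91, adjusted p 0.00341). Txnrd1 (-0.73), Slc7a11 (-0.94) and Gclc (-0.69) were lower too, which made 6 falls and 0 rises among 16 members of the Nrf2 list. Other genes, named after their values were seen, were the iron exporter Slc40a1 (-1.37), the heme transporter Slc48a1 (-0.65) and the transcription factor gene Tshz1 (-0.52), which were lower, and the nucleoside transporter Slc28a2 (0.84), the transcription factor gene Cebpd (0.61) and the RNA sensor Tlr7 (0.51), which were higher. The zinc genes already differed as at 24 h: Mt2 stood at 35.26, 42.63 and 30.33 against 6.94, 3.982 and 8.447 (2.35, adjusted p 0.0421), and Slc30a1 (1.13) and Mt1 (0.95) were higher. Slc39a10 was lower, at 482.8, 579.1 and 621.2 against 1056, 1193 and 1108 (adjusted p 0.00507). Of the 19 calls, 12 were lost in at least 1 alternative, whereas those of Hmox1, Srxn1, Gclm, Txnrd1, Slc39a10 and Slc48a1 stood in each.

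The difference between the drugs changed from 4 h to 24 h in 3827 of 11964 genes (32%, limma interaction over 12 libraries), 1797 upward and 2030 downward. The genes called at 4 h were chosen by their difference there, and the same libraries enter the interaction, so the choice favours a change. Among these 19 genes, 13 were called in this interaction and 10 were called at 24 h with the sign they had at 4 h. In 6 the sign turned, Hmox1, Srxn1, Slc7a11, Sqstm1, Slc40a1 and Asb2, with calls at both times. The 4 h calls of Slc7a11, Sqstm1, Slc40a1 and Asb2 were each lost in some alternatives. Hmox1 went from -1.14 to 1.23, a change of 2.37 (adjusted p 4.37e-07), and Sqstm1 from -0.52 to 2.19, a change of 2.72 (adjusted p 9.66e-08). Asb2 went from 1.21, with 140, 174.7 and 176.7 against 68.41, 59.73 and 83.53, to -3.65, a change of -4.86. Mt2 and Mt1 grew by 1.70 and 1.30. Slc30a1 had a change of 0.17, which did not pass the test (adjusted p 0.515). Every one of 20 sterol genes, 18 mitotic genes and 18 lysosomal genes was called in the interaction, the lysosomal ones upward except Tfeb and the others downward. By contrast, 4 of 17 interferon-stimulated genes were called, where the list median was already 0.50 at 4 h, without a call in the fit without pairing.

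**Figure D4:**
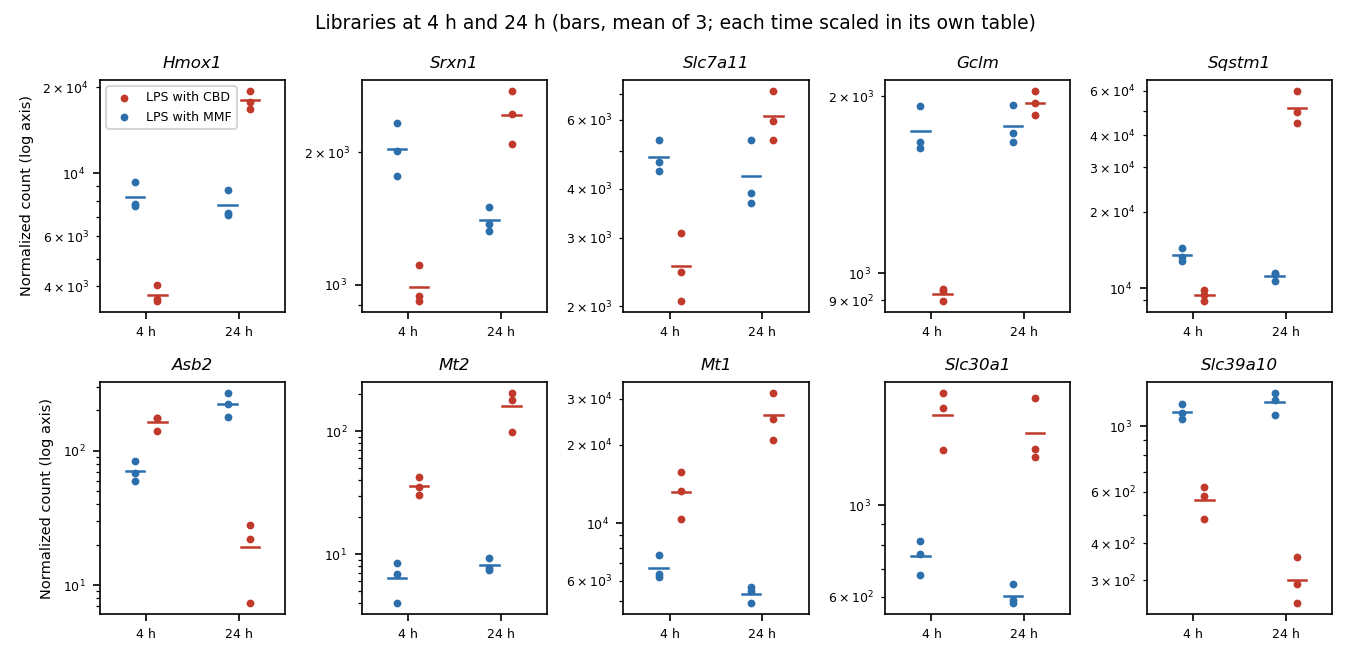
Normalized count (y, log axis) in each library with CBD (red) and MMF (blue) at 4 h and 24 h for 10 genes, with bars at the mean of 3 libraries and each time on the scale of its own table. Hmox1, Srxn1, Slc7a11 and Sqstm1 lie lower with CBD at 4 h and higher at 24 h, Asb2 the reverse, and the zinc genes keep their order.

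The level under LPS alone places the direct difference. The following values share the CBD or MMF libraries with it and are therefore not independent of it. CBD against LPS alone gave 5687 DEGs among 11671 genes (48.7%), and MMF against LPS alone gave 0 among 11584 (0%), with 440 at an unadjusted p below 0.05, 0 by edgeR and 17 by DESeq2. That 0 came from a fit without pairing. With the replicate block, which was added after seeing the data, MMF against LPS alone gave 206 DEGs (1.78%), 129 higher and 77 lower, and CBD against LPS alone gave 6616. The number of genes called between MMF and LPS alone thus depended on the tool and on whether the replicate numbers entered the fit. Il1b, on a scale common to the 24 h libraries, stood at 2218, 3422 and 2579 in LPS alone, at 2014, 3887 and 2864 with MMF and at 192.2, 466.7 and 147.3 with CBD, while DMSO and EtOH without LPS lay between 20.73 and 66.32. With CBD it was thus below LPS alone and above the cultures without LPS. Its log2FC against LPS alone was -3.50 for CBD and 0.07 for MMF. Rsad2 had 3.12 and -0.10, Ccl7 3.48 and -0.79, Gpnmb 2.64 and -0.01, Ddit3 3.02 and 0.14, Mt1 2.54 and 0.29, Hmgcs1 -1.41 and -0.14, and Mki67 -1.45 and -0.08, for CBD and MMF respectively. Cxcr2 stood at 606.1, 697.7 and 583.4 in LPS alone and at 653 or more in both vehicles, so CBD alone of these treatments took it below 100 (43.09, 62.75 and 27.68). For some antioxidant genes the MMF value was not near 0. Srxn1 had 1.46 for CBD and 0.67 for MMF (adjusted p 0.0777), Slc7a11 1.33 and 0.82, Gclm 0.75 and 0.61, and Gsr -0.08 and 0.41, where none of the MMF values was called without the block. With it, limma called each of these 4 MMF values (adjusted p 4.63e-08, 1.41e-10, 8.05e-08 and 6.42e-06), and of 16 members of the Nrf2 list 12 were higher with MMF than with LPS alone and 0 lower, compared to 1.78% of all tested genes called. For CBD against LPS alone 11 were higher and 0 lower with the block.

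Ethanol against DMSO, both without LPS, differed in 1 of 11715 genes (0.00854%), Lars2 (named after its values were seen), whereas edgeR called 1 gene, DESeq2 called 3, the replicate block gave 20, and 430 had an unadjusted p below 0.05. Taking this vehicle difference from the drug difference in 1 model of 12 libraries left 4210 of 12072 genes called (34.9%), 2031 higher and 2179 lower. The vehicles were measured without LPS, so a vehicle effect that needs LPS could not be taken out. Mitotic genes were called in 18 of 18 under this subtraction, sterol genes in 19 of 20, lysosomal genes in 16 of 18, all higher, and interferon-stimulated genes in 13 of 17. Il1b had a difference of -3.45 (limma adjusted p 0.00103), Ddit3 2.79 (1.95e-06) and Gpnmb 2.83 (3.97e-07). Tnf (-0.52, adjusted p 0.0529), Csf1r (-0.82, 0.0505), Trem2 (0.34, 0.224), Tfeb (-0.64, 0.068) and Ddit4 (-0.80, 0.0706) were not called in this model. Their log2FC in the direct comparison were -0.54, -0.84, 0.58, -0.56 and -0.76, so of these only Trem2 became clearly smaller. The SE of Tnf was 0.13 in the direct comparison and 0.194 here, in a fit without a replicate block. The cause of the lost calls was not tested.

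**Figure D5:**
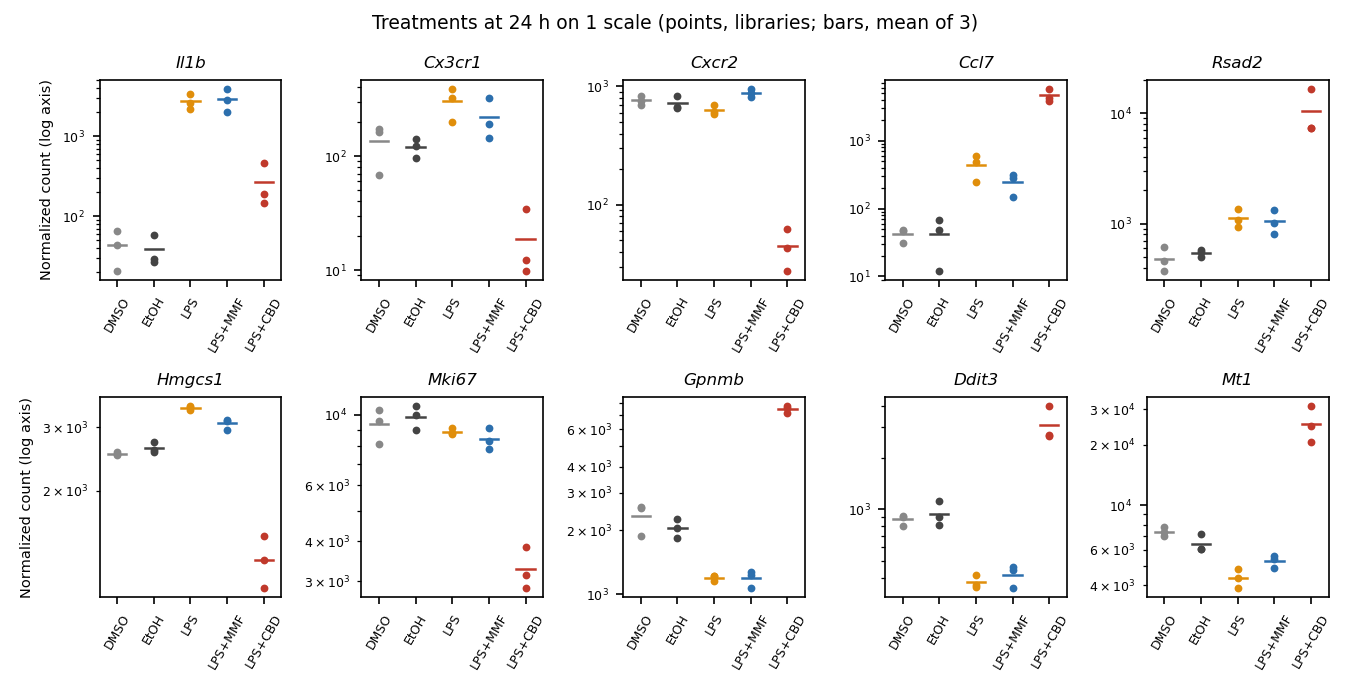
Normalized count on 1 scale (y, log axis) in each 24 h library of DMSO, EtOH, LPS, LPS with MMF and LPS with CBD for 10 genes, with bars at the mean of 3 libraries. In each gene the CBD libraries lie beyond all libraries of LPS alone and of LPS with MMF, as for Ddit3 at 2668 to 3971 against at most 458.6.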

How the data were processed

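Poly(A) RNA of BV-2 cells was sequenced by the study as paired reads. Per the labels and the study's methods, the authors used FastQC 0.12.1, cutadapt 4.4, Trimmomatic 0.39, HISAT2 2.2.1 (GRCm39), HTSeq 2.0.3, R 4.3.1 and DESeq2 1.40.2. The strand setting of the counting is not given in the sources used here, so overlapping and antisense genes cannot be told apart. The deposited unit is a signal, the normalized count of reads per gene divided by a DESeq2 size factor. The series holds 30 such tables, and 8 of them were used. Their columns of the authors' own fold changes and p-values were left out.

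Whole reads were recovered from the steps between low values: all 783427 values (100%) of the 45 library columns with readable steps lay within 0.01 of a whole read. In 3 further columns, CBD replicate 2 at 24 h among them, reads were taken from the same library in another table, of which these columns were constant multiples. Reads assigned to genes per library are given with the results, and intervals cover counting error only. Within the groups used, the chi-square of reads per degree of freedom was 4.86 or more in each pair of libraries, so none was taken for a copy.

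Log2(normalized count + 1) was fitted with limma 3.58.1 (R 4.3.3, trend) over genes with at least 10 normalized counts in at least 3 libraries, with a call at a Benjamini-Hochberg adjusted p below 0.05 over all tested genes. A fold change on this scale understates that of genes with few reads. The change between times and the subtraction of the vehicles were interaction terms over 12 libraries. Alternatives were edgeR 4.0.16 and DESeq2 1.42.0 on recovered reads, TMM scaling, a pseudocount of 5, no filter, a limit of 1 on the log2 scale, 18 libraries in 1 fit, the replicate block and each library left out. Leaving out both libraries numbered 2, and the replicate block against LPS alone and between vehicles, were chosen after seeing the data. The scripts were tested on simulated data.

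Deviations from the group means, over genes with a mean of at least 50, correlated between same-numbered CBD and MMF libraries at r = 0.314, 0.572 and 0.244 at 24 h and 0.626, 0.669 and 0.45 at 4 h. Each was over 0.1, so the numbers were taken to pair the libraries, though the labels do not say what a number marks. The pairs of LPS alone with MMF had r = 0.428, 0.68 and 0.331. The series describes independent experiments, but no label ties a library to one, and p-values measure the spread between these libraries.

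The members and the 27 gene lists (411 genes, 408 listed and 377 tested) were chosen with earlier results of these data known. Named were the 12 largest rises and 12 largest falls among called protein-coding genes whose higher group averaged 50 or more and whose groups did not overlap, 2 to 5 members a list and, after their values were seen, the genes called at 4 h. Promoter windows of 250 bases came from the GRCm39 genome and its GENCODE annotation, whose start sites can differ from those of the counting annotation, for 11706 of 11716 tested genes. Some genes of the lists are counted but not reported by name here.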

Additional observations from a re-analysis of the deposited data

Results flagged for a closer look

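The difference between CBD and MMF was not the same at 24 h as at 4 h in 3827 of 11964 genes (32%). This came from the limma interaction test over 12 libraries with Benjamini-Hochberg adjustment. Among the 19 genes called at 4 h, 13 were called in this test. These 19 were chosen by their difference at 4 h, and the same 4 h libraries enter the test. The choice therefore favours a change, and the 13 are given as a description. The values here are the log2 difference at 24 h less that at 4 h. The change was upward for Sqstm1 (2.72), Slc40a1 (2.52), Hmox1 (2.37), Srxn1 (1.82), Mt2 (1.70), Slc7a11 (1.46), Mt1 (1.30), Gclm (1.05), Slc48a1 (0.87), Gclc (0.55) and Txnrd1 (0.54). It was downward for Slc39a10 (-1.01) and Asb2 (-4.86). Sqstm1, Slc40a1, Hmox1, Srxn1, Slc7a11 and Asb2 had called differences of opposite sign at the times. The 4 h calls of Sqstm1, Slc40a1, Slc7a11 and Asb2 were lost when some single libraries were left out, for Asb2 any of them. The 24 h call of Slc7a11 was also lost without some libraries. For Mt1, Mt2 and Slc39a10 the difference grew in the direction it already had at 4 h. Each of the 13 interaction calls stood under all 18 alternatives run for the interaction, which did not cover the calls at the single times. The cause of the change with time was not tested.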

How the results depend on the processing

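At 24 h the 5654 calls ranged from 4563 to 5462 with single libraries left out and were 5653 by edgeR, 5466 by DESeq2, 6648 with the replicate block, 6188 with 18 libraries in 1 fit, and 1175 with a further limit of 1 on the log2 scale. At 4 h the 19 calls became 74 by DESeq2, 889 with the replicate block, and 9 to 14 with single libraries left out. The interaction of time kept 1007 calls beyond 1 and ranged from 3065 to 3730 without single libraries, with 5487 under the replicate block. The subtraction of vehicles kept 1135 beyond 1 and ranged from 3535 to 4205. For MMF against LPS alone, DESeq2 called 17 genes and the replicate block 206, and for ethanol against DMSO they called 3 and 20. No named gene changed its sign, but list medians near 0 did, such as cytokines (-0.04, and 0.10 without CBD replicate 3) and costimulatory molecules (0.07, -0.14 without CBD replicate 2, and -0.16 without both libraries numbered 2). Of 1736 values of 124 named genes under 14 alternatives, 1712 kept direction and side of the threshold, 16 lost a call and 8 gained one. The 24 changes were in 7 genes: Nos2, Tmem119, Gclm, Ddit4, Sdf2l1, Slc7a11 and Txnrd1. Gclm was called only without both libraries numbered 2 (adjusted p 0.0305). Of 171 values of the 19 genes of 4 h, 115 kept their call and 56 lost it. The causes were not tested. Leaving a library out changes the number of samples and takes away that library's values, and these cannot be told apart. With 3 libraries a group, drug, dose and vehicle confounded, and 1 dose per drug, no order of potency can be read from these values. Genes with few reads in a group, such as Ffar2 and Acox2, have folds that depend on the pseudocount.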

Other observations

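Genes of the endocannabinoid system and of described CBD targets were mostly lower with CBD than with MMF at 24 h. Of 10 tested members, 6 fell and 2 rose (median log2FC -0.44, and -0.12 without a filter on low values), 1 rise being called without both libraries numbered 2, compared to 24.7% and 23.5% of all tested genes. Faah, the hydrolase that breaks down anandamide, stood at 177.3, 203.2 and 142.3 normalized counts with CBD against 271.5, 364.3 and 312.8 with MMF (log2FC -0.86, limma adjusted p 0.00208). The lipases that make the endocannabinoid 2-arachidonoylglycerol moved in opposite directions. Daglb stood at 199.8, 196.3 and 158.7 against 378.6, 343.4 and 341.2 (-0.94, adjusted p 0.0003), and Dagla at 165, 162.4 and 148.7 against 109.3, 109.6 and 89.25 (0.63, adjusted p 0.0051). Gpr18, a lipid receptor, was low and passed the filter through the MMF libraries, at 4.49, 6.974 and 4.56 against 19.87, 24.01 and 23.36 (-1.90). Cnr2, the cannabinoid receptor of immune cells, stood at 144.8, 137.5 and 125 against 164.4, 160.8 and 140.1 (-0.19, adjusted p 0.253).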
